A study of Mus musculus with 96 samples.

Results

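The subject is the response of the mouse kidney to sleep deprivation at circadian time (CT) 24, the last of 6 sampling times. It rests on 4 RNA sequencing libraries of 96 in the series, 2 from control mice (CON) and 2 from sleep-deprived mice (SD). The members are the 71 genes, of 21528 tested, whose counts differed between these 4 libraries at an adjusted p under 0.05 when the spread was estimated over all 24 kidney libraries. Since the CT24 libraries chose the members, their values at CT24 are given as a description and carry no test. What could be tested is how the 71 genes behaved in the 20 kidney libraries of the 5 other times, CT4, CT8, CT12, CT16 and CT20, and in the other tissues at CT24.

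All mice were wild-type C57BL/6 males, which the methods give as 6 to 8 weeks old, kept on a cycle of 12 h light and 12 h dark before the experiment, with food and water at all times. SD mice spent 10 h in a slowly turning drum that forced them to walk, from 6 in the morning to 4 in the afternoon, when mice normally rest. CON mice were left undisturbed in their cages. Tissues were then collected at 6 circadian times 4 h apart, which the labels give as times in constant darkness (DD), with 2 replicates for each condition and time. Forced walking and lost sleep cannot be told apart in these groups. The study calls the replicates biological. It is not stated for this experiment whether kidney and liver libraries share animals, so the liver may not be an independent set of mice.

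Sample titles gave the groups used here. For 20 of the 24 kidney libraries, those of CT24 included, the title disagreed with the listed characteristics in condition or time. The 4 libraries titled CT24 carried the same treatment in both, but their listed time points were DD12 for CON and DD0 for SD, where CT24 was DD20 in the other tissues. By the characteristics, the CON and SD libraries of CT24 would thus come from different times. All 10 kidney libraries titled SD at the 5 other times were listed as control in the characteristics, so every comparison at those times rests on the titles. The clock genes gave a check of the titled times. Arntl, the activator of the clock also called Bmal1, stood at 4.92 and 6.22 CPM, the counts of a gene scaled to a common library total, in the CON libraries of CT20, at 29.4 and 27.2 CPM in those of CT24 and at 49.2 and 49.2 CPM in those of CT4. The SD libraries of CT24 stood at 29.4 and 24.5 CPM, between those of CT20 (9.05 and 6.59 CPM) and CT4 (32.8 and 47.8 CPM). The repressor Nr1d1 went the other way, with 42.9 and 42.4 CPM at CT20, 11.1 and 14.3 CPM at CT24 and 10.2 and 12.1 CPM at CT4 in CON. At CT24 Arntl therefore lay between its levels of CT20 and CT4 in both conditions, and Nr1d1 lay near its CT4 level in CON. In SD, Nr1d1 was at 15.5 and 18.5 CPM at CT24 and at 19 and 16.4 CPM at CT4, so it did not separate these times. The clock gene Per2 did, with 121 and 123 CPM at CT24 and 44.3 and 42.2 CPM at CT4 in SD. Npas2 did too, with 5.73 and 4.84 CPM at CT24 and 14.3 and 20.2 CPM at CT4 in SD. These genes bear on the titled time and not on the titled condition.

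The kidney libraries held 32.2 to 58.5 M counts, and the CT24 libraries 33.0 and 54.7 M (CON) and 49.6 and 47.9 M (SD). A gene at 1 CPM therefore rested on 32.2 counts or more. Residual ribosomal RNA took 3.76% and 3.93% of counts in CON and 3.83% and 4.33% in SD at CT24, within the 3.13% to 5.78% of the other kidney libraries. Markers of the proximal tubule, the main reabsorbing segment of the kidney, summed to 36418 and 34758 CPM in CON and to 39673 and 37680.2 CPM in SD, so both SD libraries were above both CON libraries, and all 4 lay within the 34385 to 43200.4 CPM of the other times. None of the 21 markers was a member.

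Interferons are signalling proteins that cells release on infection, and low tonic signalling continues in healthy tissue. Their receptors activate STAT and IRF transcription factors, which switch on genes for antiviral sensors, for GTPases that attack intracellular microbes and for the machinery that cuts proteins into peptides and loads them on MHC class I molecules. Cells that divide express another programme, in which E2F factors drive genes of DNA synthesis before S phase, and complexes that bind the CCAAT box and the cell cycle homology region drive the genes of mitosis. Most tubule cells of an adult kidney are at rest, so transcripts of dividing cells are scarce there.

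Grouped by known role, after their values had been seen, the members comprised 26 interferon-inducible and antigen-processing genes, 3 leukocyte genes, 24 genes of the cell cycle and DNA synthesis, 3 genes of matrix and growth factor signalling, 7 other genes that were lower in SD, and 8 genes that were higher in SD. Of the 71, 52 had a promoter window in RefSeq. The 250 bases before the transcription start were searched on both strands for short motifs. The interferon-stimulated response element, searched as TTTC followed, 2 bases later, by another TTTC, was present in 7 of the 17 interferon group windows, and 3.46% of the 27025 genes with a window had it. Windows are shown for 3 of these genes, with the element in capitals, on the GRCm38.p6 build.
Igtp, chr11:58199306-58199555, plus strand: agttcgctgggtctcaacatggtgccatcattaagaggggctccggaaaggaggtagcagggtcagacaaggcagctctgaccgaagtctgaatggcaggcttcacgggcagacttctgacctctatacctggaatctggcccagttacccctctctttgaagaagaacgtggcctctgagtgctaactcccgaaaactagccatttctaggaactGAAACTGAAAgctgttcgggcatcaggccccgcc
Gbp3, chr3:142559794-142560043, plus strand: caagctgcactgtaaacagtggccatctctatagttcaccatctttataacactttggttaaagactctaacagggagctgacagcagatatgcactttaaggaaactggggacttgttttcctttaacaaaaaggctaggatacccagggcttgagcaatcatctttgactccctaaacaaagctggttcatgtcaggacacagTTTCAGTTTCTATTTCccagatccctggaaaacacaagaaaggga
Bst2, chr8:71537473-71537722, minus strand: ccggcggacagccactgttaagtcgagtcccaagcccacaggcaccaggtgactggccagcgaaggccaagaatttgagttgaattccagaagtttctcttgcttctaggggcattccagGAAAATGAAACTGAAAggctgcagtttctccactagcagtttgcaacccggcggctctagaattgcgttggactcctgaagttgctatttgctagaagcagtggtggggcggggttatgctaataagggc

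In the windows of Gbp3 and Bst2 a pair of elements overlapped, which lengthens the run of capitals. The CCAAT box, which dividing cells use in many mitotic promoters, was present in 14 of the 18 cell cycle windows and in 37.5% of all genes. The cell cycle homology region TTTGAA, a motif added to the search after the members were known, was present in 8 of the 18 and in 18.3% of all genes. The E2F sites TTTCCCGC and TTTGGCGC, added likewise, were each in 1 of the 18, against 1.03% and 0.485% of all genes. The GC box GGGCGG was in 16 of the 18, against 35.4%. Further motifs were searched and are not listed here. The windows of 3 genes of mitosis carry both the CCAAT box and the homology region, here in capitals on whichever strand they lie. ATTGG is thus a CCAAT box, and TTCAAA a homology region, of the opposite strand.
Top2a, chr11:99024190-99024439, minus strand: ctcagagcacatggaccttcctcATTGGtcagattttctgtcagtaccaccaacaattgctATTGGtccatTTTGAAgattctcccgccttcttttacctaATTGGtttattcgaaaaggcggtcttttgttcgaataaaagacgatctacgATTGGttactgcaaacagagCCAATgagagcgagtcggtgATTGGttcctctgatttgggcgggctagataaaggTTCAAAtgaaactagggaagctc
Ube2c, chr2:164769679-164769928, plus strand: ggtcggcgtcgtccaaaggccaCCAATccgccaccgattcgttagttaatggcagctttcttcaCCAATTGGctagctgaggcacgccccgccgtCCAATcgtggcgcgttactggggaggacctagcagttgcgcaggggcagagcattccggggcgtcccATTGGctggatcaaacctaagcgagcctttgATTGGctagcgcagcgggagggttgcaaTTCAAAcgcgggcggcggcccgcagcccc
Mki67, chr7:135716380-135716629, minus strand: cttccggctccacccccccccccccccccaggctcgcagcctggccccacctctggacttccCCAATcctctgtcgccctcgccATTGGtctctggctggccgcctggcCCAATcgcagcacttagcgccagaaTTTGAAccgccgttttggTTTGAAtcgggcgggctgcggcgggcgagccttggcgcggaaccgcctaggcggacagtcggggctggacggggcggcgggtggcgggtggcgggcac

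No interferon-stimulated response element lay in the 18 cell cycle windows, and the CCAAT box was in 3 of the 17 interferon windows. Among the 5 windows of the genes that were higher, the E-box CACGTG bound by the clock activators was present in 2, and 6.86% of all genes had it. These matches describe letters in the windows, and no binding was measured.

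At CT24 the 71 members were 0.330% of the genes tested, with 63 lower and 8 higher in SD. Lower members differed by a median log2 fold change of -1.05 and higher ones by 0.73, where the median of all genes tested was 0.017. The list depended on each library. When any 1 CT24 library was left out, most or all members were no longer called. Such a fit leaves 1 library in a group and re-uses libraries that chose the members, so it carries no test. Just inside the threshold lay Casp12, Gbp7 and Acsf2, with log2 fold changes of -0.93, -0.95 and -0.53. Just outside it lay Gm44165, listed at 0 in both CON libraries, the immunity-related GTPase gene Tgtp2 (-2.08) and the immunoproteasome subunit gene Psmb10 (-0.89).

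The 5 other times gave 1 joint test of the SD against CON difference, averaged over the times, in 10 CON and 10 SD libraries. Their differences between conditions did not enter the CT24 threshold, although the members were chosen with earlier results of these data known. Their spread did enter it, since it was estimated over all 24 kidney libraries, so genes of low spread could be favoured in both steps. The size of that effect was not tested. All 71 members were measured well enough to be tested there. Of the 71, 30 passed at an adjusted p under 0.05, all of them lower in SD, where 1.32% of all genes passed in either direction and 1.22% passed as lower. A further comparison at an unadjusted p under 0.05 counted 52 of the 63 lower members as lower, against 6.58% of all genes. By the sign of the fold change alone, 36 members were lower at all 5 other times, as were 6.36% of all genes. The 30 were 23 of the 26 interferon genes, all 3 leukocyte genes, 3 of the 24 cell cycle genes (Ccnf, Top2a and Ncapd2) and the tubulin gene Tubb5. None of the 8 higher members passed. In 23 of the 30 the call was kept in each of 20 fits that left out 1 library. The 7 whose call was lost in at least 1 of those fits were Ccnf, Top2a, Ncapd2, Gm4951, Oasl2, Ifi27 and Slfn9, with largest adjusted p-values from 0.0502 for Slfn9 to 0.118 for Ccnf.

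**Figure D1:**
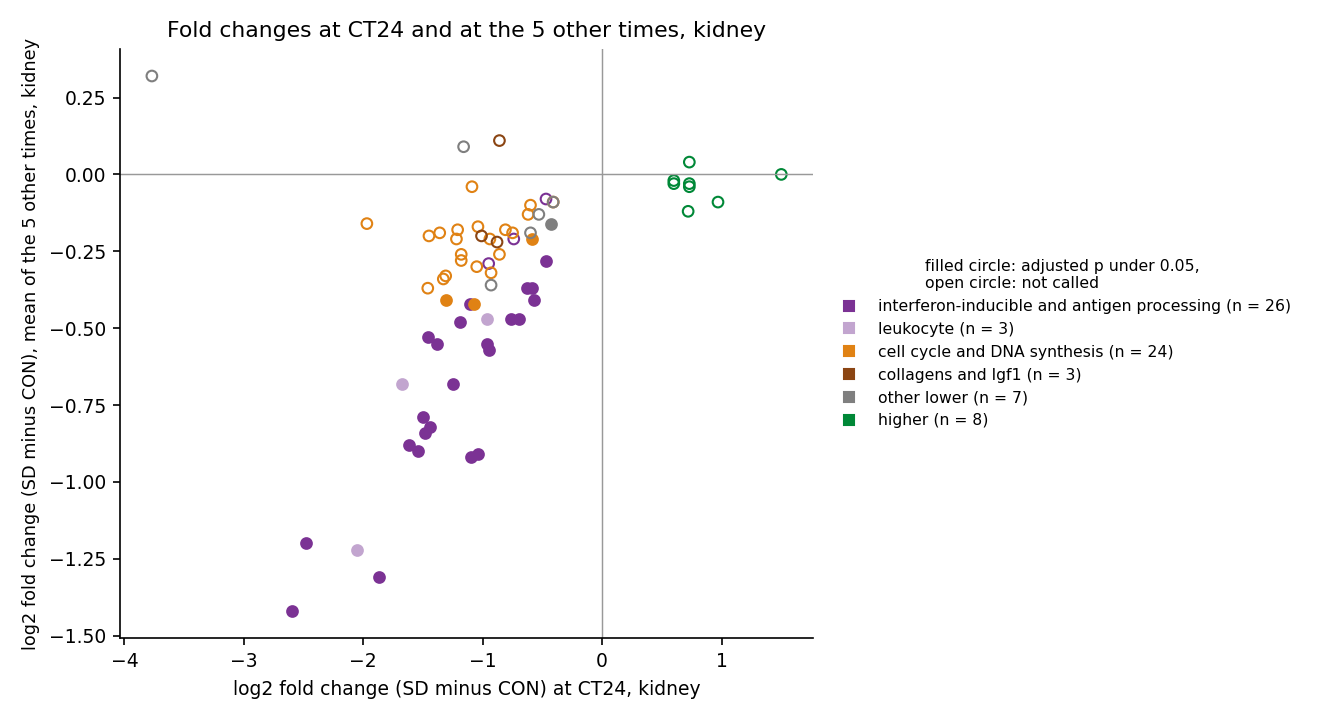
Each circle is 1 of the 71 members, with its log2 fold change (SD minus CON) at CT24 on the x axis and averaged over the 5 other times on the y axis. Colours give the role, filled circles passed over the other times at an adjusted p under 0.05. The interferon genes reach -1.42 on the y axis, whereas the cell cycle genes lie between -0.42 and -0.04 and the higher members near 0.

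Among the interferon genes, the 3 with the largest differences at CT24 were Gm4841, Iigp1 and Igtp. They encode immunity-related GTPases, interferon-inducible enzymes that break the vacuoles around intracellular parasites. Igtp (chr11:58199556-58207591, whose promoter is shown above) was at 83.8 and 93.5 CPM in the CON and 25.7 and 23.6 CPM in the SD libraries of CT24, a log2 fold change of -1.87. At the other times it ranged over 25.5 to 132 CPM (median 51.8) in CON and 12.5 to 31.2 CPM (median 23.7) in SD, and its averaged log2 fold change was -1.31 ± 0.17 (SE, adjusted p = 0.00145). Both SD libraries of CT24 sat inside the range that SD kidneys had at other times, and both CON libraries sat inside the CON range. Igtp overlaps its relative Irgm2 on the same strand, so that reads of the overlap are uncertain. Irgm1, which regulates the other members of the family, was at 111 and 146 CPM in CON and 64.9 and 61.7 CPM in SD at CT24 (log2 fold change -1.04). Over the other times it fell by 0.91 on the log2 scale (SE 0.09, adjusted p = 0.000403), and at CT20 alone it passed with a log2 fold change of -1.40 (adjusted p = 0.0485).

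On chromosome 18 lie 3 genes of this family together, Gm4841 and Iigp1 among them. Iigp1 was at 38 and 37.8 CPM in CON and 7.26 and 6.51 CPM in SD at CT24 (-2.48 on the log2 scale). In the 20 other kidney libraries its CON libraries spanned 7.47 to 39.3 CPM (median 17.3) and its SD libraries 4.48 to 13.6 CPM (median 7.78), with an averaged log2 fold change of -1.20 ± 0.19 (SE, adjusted p = 0.00494). Gm4841, with 8.03 and 5.91 CPM in CON and 1.49 and 0.834 CPM in SD, had the largest fold change of the group at CT24, -2.60, and also over the other times, -1.42 ± 0.24 (SE, adjusted p = 0.00692). The third, Gm4951, was at 12 and 12.3 CPM in CON and 5.67 and 5.13 CPM in SD, and its averaged log2 fold change was -0.48 ± 0.10 (SE, adjusted p = 0.0294). The 3 belong to one family of similar genes, and the authors kept alignments of high mapping quality, so their counts are uncertain where copies are alike.

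The guanylate-binding proteins are larger interferon-inducible GTPases with a like task. Gbp3 was at 23.2 and 33 CPM in CON and 10.4 and 9.76 CPM in SD at CT24 (-1.5 on the log2 scale), and Gbp7, 9876 bases away on chromosome 3, at 41.5 and 47.2 CPM in CON and 23.8 and 22.7 CPM in SD (-0.95). Both passed over the other times, Gbp3 with -0.79 ± 0.11 (SE, adjusted p = 0.00187) and Gbp7 with -0.57 ± 0.10 (SE, adjusted p = 0.00686). Gbp9 was at -0.95 on the log2 scale at CT24 and at -0.29 ± 0.08 (SE, adjusted p = 0.115) over the other times, where it did not pass. Gbp9 overlaps Gbp4 on the same strand, and reads of the overlap could not be split between them.

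Regulators of the response were members too. Irf7, the transcription factor that amplifies type I interferon production, was at 41.9 and 79.7 CPM in CON and 19.7 and 20 CPM in SD at CT24 (-1.62 on the log2 scale), so the 2 CON libraries differed from each other by more than the 2 SD libraries. Outside CT24 Irf7 ranged over 23.7 to 60.9 CPM (median 43.4) in CON and 15.3 to 27.1 CPM (median 22.2) in SD, and its averaged log2 fold change was -0.88 ± 0.10 (SE, adjusted p = 0.00104). Its 2 SD libraries of CT24 fell within the narrow range of the other SD libraries. Nlrc5, the activator of MHC class I genes, was at 21.9 and 26.1 CPM in CON and 8.41 and 8.32 CPM in SD (-1.54), with -0.90 ± 0.12 (SE, adjusted p = 0.00187) over the other times. Parp9 and Dtx3l, whose protein products form a complex that enhances interferon signalling, overlap head to head by 682 bases on chromosome 16. Parp9 was at 33.9 and 41 CPM in CON and 23.7 and 21.2 CPM in SD, and Dtx3l at 47.8 and 56.6 CPM in CON and 34.3 and 30.6 CPM in SD. The averaged log2 fold changes of the pair were -0.47 ± 0.05 (SE, adjusted p = 0.000993) for Parp9 and -0.47 ± 0.06 (SE, adjusted p = 0.00143) for Dtx3l, and Parp9 also passed at CT20 alone (-0.80, adjusted p = 0.0485).

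Sensors and effectors of the antiviral response made up the next set. Oasl1 (chr5:114923240-114937915), a relative of the enzymes that sense double-stranded RNA, was at 4.82 and 8.14 CPM in CON and 3.51 and 2.63 CPM in SD at CT24 (-1.10 on the log2 scale). Away from CT24 its CON libraries ran from 3.79 to 6.71 CPM (median 4.78) and its SD libraries from 1.72 to 3.49 CPM (median 2.8), so that the 2 conditions did not overlap, and it had the smallest adjusted p of all members (-0.92 ± 0.07, SE, adjusted p = 1.94e-05). It passed alone at CT4 (-1.26, adjusted p = 0.0215) and at CT8 (-1.09, adjusted p = 0.0488). Oasl2, its neighbour 11005 bases away, was at 15.7 and 21.4 CPM in CON and 8.73 and 8.62 CPM in SD, and averaged -0.42 ± 0.09 (SE, adjusted p = 0.0273). Zbp1, a sensor of unusual nucleic acid helices that can trigger cell death, was at 5.85 and 8.8 CPM in CON and 2.98 and 2.32 CPM in SD (-1.48), and averaged -0.84 ± 0.14 (SE, adjusted p = 0.00515). Ifih1, the cytoplasmic RNA sensor MDA5, was at 42.7 and 51 CPM in CON and 33.1 and 28.2 CPM in SD, and averaged -0.37 ± 0.05 (SE, adjusted p = 0.00278).

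Bst2, or tetherin, which holds budding viruses on the cell surface, was at 26.2 and 43.6 CPM in CON and 13 and 13 CPM in SD at CT24 (-1.44 on the log2 scale) and averaged -0.82 ± 0.11 (SE, adjusted p = 0.00202) over the other times. Ifi27 was at 95.4 and 158 CPM in CON and 42.2 and 50.7 CPM in SD, and Lgals3bp, a secreted glycoprotein, at 185 and 296 CPM in CON and 109 and 95.9 CPM in SD. For Irf7, Ifi27, Bst2, Lgals3bp and Oasl1 alike, CON replicate 2 lay well above CON replicate 1 at CT24, while the SD libraries lay below both. The averaged changes were -0.53 ± 0.11 (SE, adjusted p = 0.0205) for Ifi27 and -0.68 ± 0.09 (SE, adjusted p = 0.00172) for Lgals3bp. Slfn9 was at 7.72 and 9.02 CPM in CON and 3.53 and 2.96 CPM in SD, and averaged -0.55 ± 0.11 (SE, adjusted p = 0.0173). Rnf213, a large ubiquitin ligase, was at 250.1 and 304 CPM in CON and 197 and 175 CPM in SD, the smaller log2 fold change of -0.59, and averaged -0.37 ± 0.05 (SE, adjusted p = 0.0014).

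Cmpk2 and Rsad2 are neighbours 12751 bases apart on chromosome 12, and their products cooperate to make a chain-terminating nucleotide against viruses. At CT24 Cmpk2 was at 32.8 and 37 CPM in CON and 27 and 24 CPM in SD, and Rsad2 at 70.9 and 67.7 CPM in CON and 50.7 and 50.8 CPM in SD, with log2 fold changes of -0.47 for Cmpk2 and -0.47 for Rsad2. Only one of the pair passed over the other times. Cmpk2 passed with -0.28 ± 0.04 (SE, adjusted p = 0.00427), whereas Rsad2 was at -0.08 ± 0.04 (SE, adjusted p = 0.418), with CON libraries of 55.4 to 66.6 CPM (median 58.4) and SD libraries of 45.4 to 67.5 CPM (median 56) that overlapped. Whether the 2 genes differ from each other was not tested.

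In antigen processing, Tap2, a subunit of the transporter that carries peptides into the endoplasmic reticulum, was at 38 and 45.5 CPM in CON and 22.4 and 21.1 CPM in SD (-0.96 on the log2 scale) and averaged -0.55 ± 0.08 (SE, adjusted p = 0.00321). Erap1, which trims the peptides there, was at 91.8 and 114 CPM in CON and 69.4 and 71.2 CPM in SD at CT24. At CT4 to CT20 Erap1 ranged over 79.5 to 119 CPM (median 98.6) in CON and 69 to 81.6 CPM (median 76.7) in SD, and averaged -0.41 ± 0.05 (SE, adjusted p = 0.00145). Among its 24 kidney libraries only the lowest CON value fell below the highest SD value. Psme2, a proteasome activator subunit, was at 35.2 and 43.1 CPM in CON and 22.1 and 25.4 CPM in SD and at -0.21 ± 0.05 (SE, adjusted p = 0.0554) over the other times, which did not pass.

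**Figure D2:**
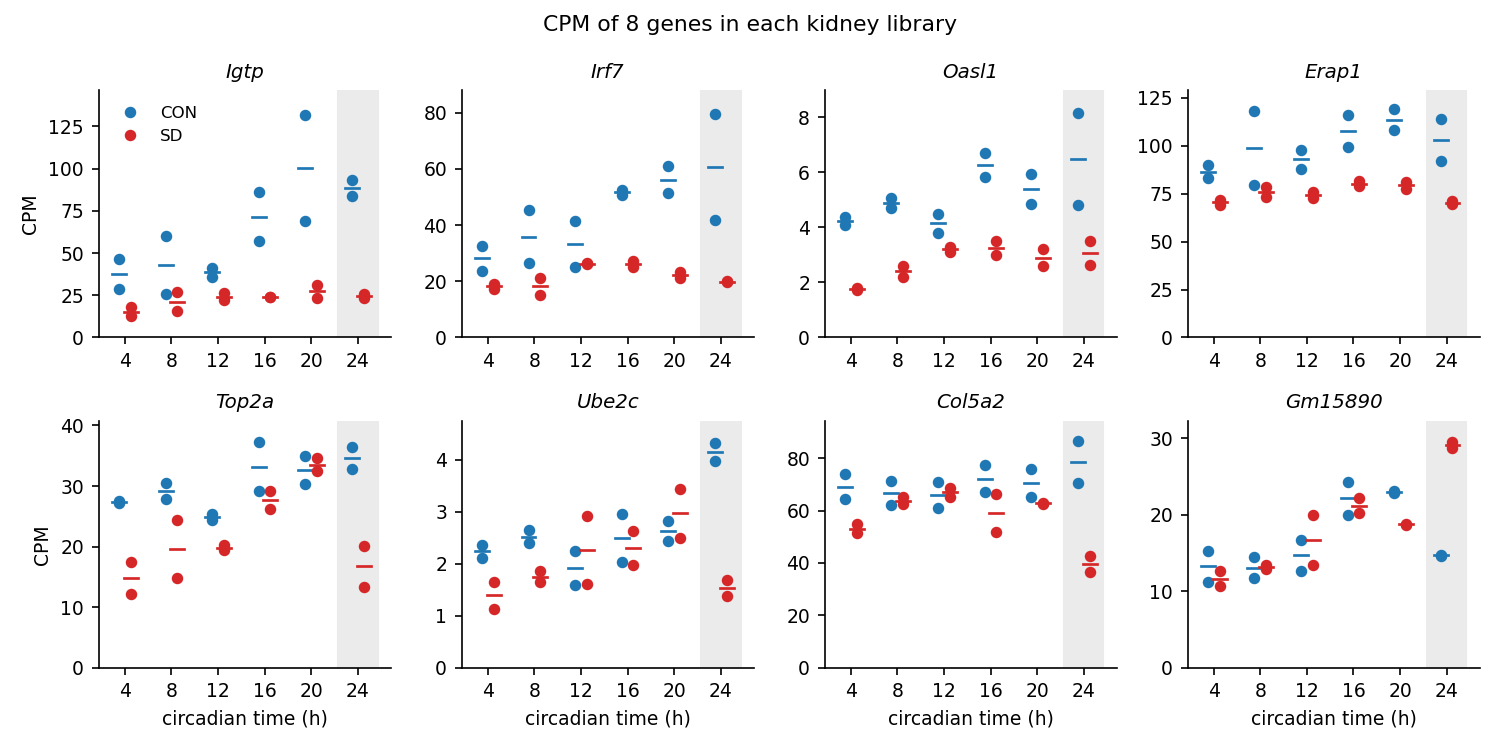
CPM of 8 members (y axes, each from 0) in each of the 24 kidney libraries, by circadian time (x axis, h), with CON in blue, SD in red and a bar at the mean of 2 libraries. CT24, which chose the members, is shaded. The means of Igtp, Irf7, Oasl1 and Erap1 were lower in SD at each of the 6 times, the mean of Top2a and that of Ube2c in SD was at or above that in CON at CT20, and Gm15890 had its highest values in the SD libraries of CT24.

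As a group, the 26 interferon genes had a median log2 fold change of -1.10 at CT24 and of -0.55 over the other times, where the median of all genes tested was 0.005. By time the group median was -0.62 at CT4, -0.57 at CT8, -0.24 at CT12, -0.68 at CT16 and -0.79 at CT20. Both SD libraries lay below both CON libraries for 24 of the 26 at CT4 (16.4% of all genes), 16 at CT8 (10.6%), 17 at CT12 (24.4%), 22 at CT16 (14.3%) and 26 at CT20 (17.2%). CT12 thus had the smallest median and CT20 the largest among these 5. Few genes passed at a single time with 2 libraries a group, namely 1 member at CT4 (0.00936% of all genes), 1 at CT8 (0.00936%), 0 at CT12 (0.0234%), 0 at CT16 (0% of all genes) and 2 at CT20 (0.0140%). At an unadjusted p under 0.05 the number of the 63 lower members that were lower was 46 at CT4 (3.58% of all genes), 33 at CT8 (4.22%), 9 at CT12 (2.69%), 32 at CT16 (3.02%) and 29 at CT20 (3.53%). Irf7 was at 23.7 and 32.6 CPM in CON at CT4 and 51.5 and 60.9 CPM at CT20, and at 19.2 and 17.2 CPM and 23.2 and 21.1 CPM in SD. The term for a condition effect that changes between the 5 times passed for 0 of the 71 members and for 0% of all genes by edgeR, with 11 members and 4.75% of all genes at an unadjusted p under 0.05.

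Beyond the members, a list of 43 tested interferon response genes was read, chosen like the other lists with earlier results of these data known. It held 16 of the members. Over the other times 31 of the 43 passed as lower in SD with 0 higher, where 1.22% of all genes passed as lower. The median of the 43 there was -0.57 on the log2 scale. Of its 27 genes that were not members, 16 passed as lower. Among them was Tap1, the partner of Tap2, at 30.0 and 40.6 CPM in CON and 16.6 and 13.3 CPM in SD at CT24, with an averaged log2 fold change of -1.01 ± 0.14 (SE, adjusted p = 0.00194). The interferon-induced Ifit1 was at 22.3 and 31.4 CPM in CON and 17.6 and 15.8 CPM in SD, and averaged -0.37 ± 0.07 (SE, adjusted p = 0.0114). Of 17 genes of MHC class I and antigen processing, 3 were members and 15 passed as lower over the other times. H2-K1, a classical class I heavy chain, was at 468 and 447 CPM in CON and 221 and 205 CPM in SD at CT24, and averaged -1.02 ± 0.13 (SE, adjusted p = 0.00145). Among 10 MHC class II genes none was a member and 8 passed as lower. The averaged change of H2-Ab1, a class II beta chain, was -1.47 ± 0.17 (SE, adjusted p = 0.0013), a larger one than its fold change at CT24 of -1.32. CPM here are levels as counted, since B2m, which most cells express strongly, was listed at 0.636 and 0.64 CPM in the CON libraries of CT24.

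Leukocytes express many of these genes, and in a whole kidney fewer cells of a type and less RNA per cell cannot be told apart. The 3 leukocyte members were Fcgr1, a high-affinity antibody receptor of macrophages and dendritic cells, Ms4a4c and Plac8. Fcgr1 was at 3.76 and 4.39 CPM in CON and 1.27 and 1.29 CPM in SD at CT24 (-1.68 on the log2 scale), Ms4a4c at 1.12 and 2.05 CPM in CON and 0.464 and 0.313 CPM in SD (-2.05) and Plac8 at 14.9 and 18.3 CPM in CON and 8.45 and 8.87 CPM in SD (-0.96). Over the other times the averaged changes were -0.68 ± 0.12 for Fcgr1 (SE, adjusted p = 0.00837), -1.22 ± 0.18 for Ms4a4c (SE, adjusted p = 0.00309) and -0.47 ± 0.06 for Plac8 (SE, adjusted p = 0.00149). General leukocyte markers moved with the condition as well. Their 11 genes summed to 179.5 and 185 CPM in CON and 165 and 153 CPM in SD at CT24, where none was a member. At the other times the sums were 180.4 to 290.1 CPM in CON and 139 to 178 CPM in SD. There 9 of the 11 passed as lower, against 1.22% of all genes. Macrophage and dendritic cell markers summed to 233 and 250.4 CPM (CON) and 185 and 190.1 CPM (SD) at CT24. At the other times 10 of 16 passed as lower, as did 6 of 17 T and NK cell markers and 0 of 11 B cell markers. The T and NK cell sums overlapped at CT24, with 25.3 and 20.7 CPM in CON and 26.2 and 19.5 CPM in SD. B cell sums were 6.3 and 7.98 CPM in CON and 5.26 and 4.84 CPM in SD. Ptprc, or CD45, which all leukocytes carry, had a log2 fold change of -0.37 at CT24 and -0.60 ± 0.08 (SE, adjusted p = 0.00187) over the other times. The part of these markers in the result on the interferon genes was not tested.

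**Figure D3:**
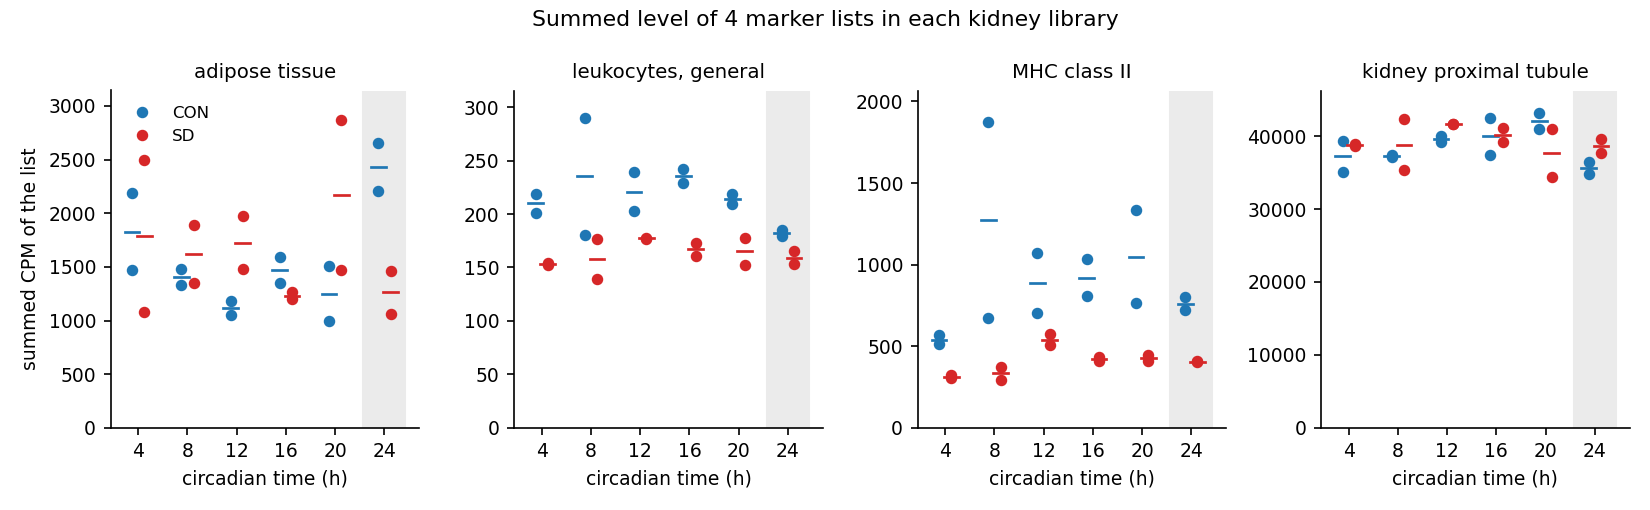
Summed CPM of 4 marker lists (y axes, from 0) in each kidney library by circadian time (x axis, h), CON in blue, SD in red, bars at the means, CT24 shaded. The adipose sums of the 2 CT24 CON libraries (2206 and 2654 CPM) are above those of the 2 CT24 SD libraries (1061 and 1464 CPM). Both SD sums of general leukocytes and of MHC class II are below both CON sums at each of the 6 times, and the proximal tubule sums of both conditions lie between 34385 and 43200.4 CPM.

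Genes of the cell cycle were the second large group at CT24, with 24 members, all lower in SD and with a median log2 fold change of -1.08. Cenpm, a centromere protein, had the largest fold change (-1.97), with 1.42 and 1.45 CPM in CON and 0.302 and 0.438 CPM in SD. Ube2c, which helps the anaphase-promoting complex destroy cyclins, was at 3.97 and 4.32 CPM in CON and 1.69 and 1.38 CPM in SD (-1.45). Plk1, a kinase of mitotic entry, was at 4.82 and 6.02 CPM in CON and 3.21 and 2.11 CPM in SD (-1.05), and the proliferation marker Mki67 at 43.6 and 44.7 CPM in CON and 27.2 and 19.5 CPM in SD (-0.94). For these 4 genes, which the same libraries chose, both SD libraries lay below both CON libraries, as for 18.7% of all genes. Mcm3, a subunit of the replicative helicase, was at 12.7 and 13.8 CPM in CON and 7.84 and 7.45 CPM in SD (-0.81), both SD values near the lowest of the other SD kidneys (7.39 CPM).

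Other genes of the group spanned the cell cycle. In mitosis and cell division stood the kinesin Kif18b, the spindle proteins Dlgap5 and Tpx2, the kinase Pbk, the helicase Ercc6l, and Anln and Racgap1 of the dividing furrow, with log2 fold changes at CT24 from -1.46 for Kif18b to -0.93 for Racgap1. In DNA synthesis, repair and S phase entry stood E2f2, Uhrf1, which maintains DNA methylation, Rrm1, the large subunit of ribonucleotide reductase, the deoxycytidine kinase Dck, the ATPase Atad2, the repair factors Fignl1 and Parpbp and the inhibitor Cdkn2c, from -1.33 for Fignl1 to -0.41 for Rrm1.

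Its values differed in size among the 5 other times, although the term for condition and time passed for none of its genes. The median log2 fold change was -0.63 at CT4, -0.30 at CT8, -0.09 at CT12, -0.18 at CT16 and 0.04 at CT20. By sign, 24 of the 24 were lower in SD at CT4, 23 at CT8, 17 at CT12, 21 at CT16 and 9 at CT20. The median of all genes tested lay between -0.005 (CT8) and 0.002 (CT12) at these times. Both SD libraries lay below both CON libraries for 21 of the 24 at CT4, 12 at CT8, 9 at CT12, 6 at CT16 and 2 at CT20, beside the shares of all genes given for the interferon group. Averaged over the 5 times, 3 of the 24 passed as lower (1.22% of all genes) and 17 were lower at an unadjusted p under 0.05 (6.58% of all genes). A list of 21 mitosis and replication genes showed the like, with 5 members, 1 gene passed as lower and a median of -0.20 over the other times. Of its genes that were not members, Cdk1 (8 and 7.94 CPM in CON, 4.66 and 3.8 CPM in SD at CT24) and Ccnb1 (6.51 and 7.08 CPM in CON and 3.75 and 2.88 CPM in SD) had averaged log2 fold changes of -0.36 ± 0.13 (SE, adjusted p = 0.299) for Cdk1 and -0.35 ± 0.15 (SE, adjusted p = 0.369) for Ccnb1.

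The 3 that passed were Top2a, which untangles DNA before division, Ccnf, the cyclin F of a ubiquitin ligase, and Ncapd2, a condensin subunit. Top2a (chr11:98992943-99024189) was at 32.8 and 36.5 CPM in CON and 20.1 and 13.4 CPM in SD at CT24 (-1.07 on the log2 scale). In the 20 other kidney libraries it ranged over 24.4 to 37.2 CPM (median 28.5) in CON and 12.2 to 34.6 CPM (median 22.3) in SD, with log2 fold changes of -0.87 at CT4, -0.62 at CT8, -0.32 at CT12, -0.30 at CT16 and 0.01 at CT20, averaging -0.42 ± 0.09 (SE, adjusted p = 0.0412). The 2 conditions stood apart at CT4, with 27.2 and 27.5 CPM in CON and 17.5 and 12.2 CPM in SD, and were mixed at CT20, with 30.3 and 34.9 CPM in CON and 34.6 and 32.4 CPM in SD. Ccnf was at 3.94 and 4.5 CPM in CON and 1.57 and 1.88 CPM in SD at CT24 and averaged -0.41 ± 0.09 (SE, adjusted p = 0.0433), and Ncapd2 at 20.1 and 21.1 CPM in CON and 14.6 and 13.1 CPM in SD, averaging -0.21 ± 0.05 (SE, adjusted p = 0.0311). Ube2c, by contrast, had log2 fold changes of -0.67 at CT4, -0.59 at CT8, 0.26 at CT12, -0.16 at CT16 and 0.14 at CT20, and averaged -0.20 ± 0.14 (SE, adjusted p = 0.587). The averaged change of Mki67 was -0.21 ± 0.08 (SE, adjusted p = 0.303), that of Plk1 -0.30 ± 0.09 (SE, adjusted p = 0.123), that of Mcm3 -0.18 ± 0.08 (SE, adjusted p = 0.375) and that of Cenpm -0.16 ± 0.17 (SE, adjusted p = 0.744).

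**Figure D4:**
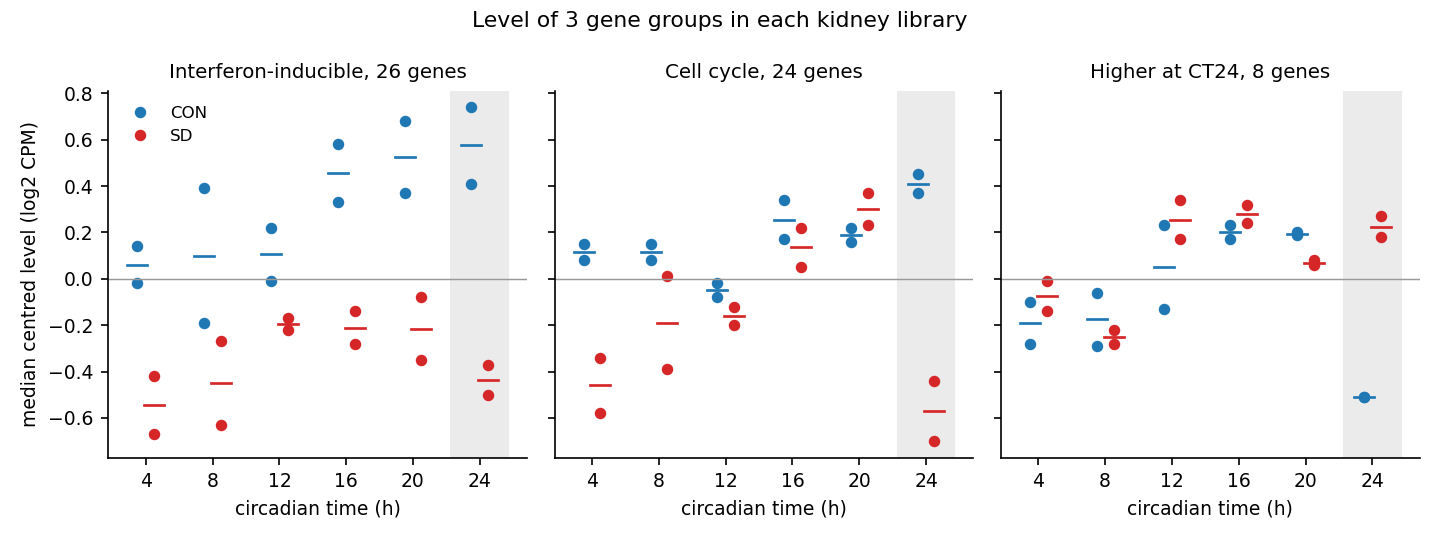
For 3 groups of members, each point is the median over the group's genes, in 1 kidney library, of log2(CPM + 0.1) minus the gene's mean over the 24 libraries (y axis), by circadian time (x axis, h). CON is blue, SD red, bars are means of 2 libraries and CT24 is shaded. The interferon group was lower in SD at each time, the median differences of the cell cycle group were larger at CT4 and CT24 than at CT12, CT16 and CT20, and the higher members had their lowest points, both at -0.51, in the CT24 CON libraries.

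The CT24 libraries can be set beside the other kidneys, as a description of the values that chose the members. For the median interferon member the CON mean of CT24 was 0.35 above the CON mean of the other times on the log2 scale, and the SD mean 0.14 below that of SD. For the median cell cycle member these were 0.28 above and 0.45 below.

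Col3a1 and Col5a2, fibrillar collagens of the interstitial matrix, lie 24614 bases apart on chromosome 1. Col3a1 was at 465 and 530.1 CPM in CON and 296 and 253 CPM in SD at CT24 (-0.88 on the log2 scale). Col5a2 (chr1:45374321-45503282) was at 70.6 and 86.4 CPM in CON and 36.4 and 42.5 CPM in SD (-1.01), and its SD libraries were below the lowest of the 20 others, 51.5 CPM. The growth factor gene Igf1 was at 51.2 and 60.6 CPM in CON and 31.4 and 30.9 CPM in SD (-0.86), below its 20 other libraries as well. Over the other times none of the 3 passed, with -0.22 ± 0.08 (SE, adjusted p = 0.296) for Col3a1, -0.20 ± 0.05 (SE, adjusted p = 0.112) for Col5a2 and 0.11 ± 0.08 (SE, adjusted p = 0.614) for Igf1.

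Of the 7 other lower members, Cox7a1, a respiratory chain subunit of muscle and brown fat, was at 14.2 and 20.6 CPM in CON and 6.94 and 8.87 CPM in SD (-1.16 on the log2 scale), and at 0.09 ± 0.09 (SE, adjusted p = 0.747) over the other times. Kcng4, a potassium channel subunit, had the largest fold change of all members (-3.77) at a level under 1 CPM, 0.394 and 0.768 CPM in CON and 0.0403 and 0.0417 CPM in SD. Outside CT24 its levels were 0.163 to 0.82 CPM (median 0.391) in CON and 0.171 to 0.811 CPM (median 0.467) in SD, and its averaged change was 0.32 ± 0.20 (SE, adjusted p = 0.554). Tubb5, a tubulin, was at 134 and 152 CPM in CON and 109 and 105 CPM in SD (-0.43) and passed at the other times with -0.16 ± 0.03 (SE, adjusted p = 0.00889). The inflammatory caspase gene Casp12, the apoptosis effector Bak1, the acyl-CoA synthetase Acsf2 and the selenoprotein gene Selenow did not pass there, with averaged changes of -0.36 ± 0.09 (Casp12), -0.19 ± 0.05 (Bak1), -0.13 ± 0.05 (Acsf2) and -0.09 ± 0.04 (Selenow, SE).

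Fat markers also separated the CT24 groups. All 15 genes of an adipose list had a negative log2 fold change at CT24, with a median of -2.23, and for 14 both SD libraries were below both CON libraries, as for 18.7% of all genes, although Cox7a1 alone was a member. The list summed to 2206 and 2654 CPM in CON and to 1061 and 1464 CPM in SD, and at the other times to 998 to 2184 CPM in CON and 1084 to 2872 CPM in SD, with a median log2 fold change of 0.16. Adipoq, the fat hormone adiponectin, was at 52.3 and 66.2 CPM in CON and 0.665 and 26.5 CPM in SD at CT24, and Ucp1, which defines brown fat, at 25.9 and 41 CPM in CON and 0 and 8.32 CPM in SD, that is, listed at 0 in SD replicate 1. A list of 10 lipogenesis genes, which fat also uses, had a median of -1.38 at CT24 and 0.18 over the other times, and 10 stroma and smooth muscle genes one of -0.54 and -0.10. More fat in the dissected CON tissue and the condition cannot be told apart at CT24, and the part of fat in the CT24 values of the 71 members was not tested. Away from CT24 the fat sums of the 2 conditions overlapped.

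Of the 8 higher members, 2 are protein-coding. Klf15, a transcription factor that glucocorticoids induce and that follows the clock, was at 27.2 and 32 CPM in CON and 44.6 and 54.4 CPM in SD at CT24 (0.72 on the log2 scale). Flvcr2, a choline and haem transporter gene, was at 0.424 and 0.457 CPM in CON and 1.09 and 1.46 CPM in SD (1.5). Over the other times Klf15 had an averaged change of -0.12 ± 0.05 (SE, adjusted p = 0.358) and ranged over 32.1 to 53.5 CPM (median 41.5) in CON and 28.4 to 48.9 CPM (median 40.7) in SD. The same measure was 0.00 ± 0.11 (SE, adjusted p = 0.995) for Flvcr2. Both CT24 CON values of Flvcr2 lay below all its other libraries, of which the lowest was 0.718 CPM, and its SD values lay between that and the highest, 1.47 CPM. Of 16 genes of a glucocorticoid response list, Klf15 was the 1 member, and the list's median was 0.30 at CT24 and 0.03 over the other times.

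The other 6 are noncoding, 4 of them annotated as antisense. Gm26697 was at 201 and 206 CPM in CON and 359.7 and 323 CPM in SD (0.73 on the log2 scale), and Gm15890 at 14.6 and 14.8 CPM in CON and 29.5 and 28.7 CPM in SD (0.97). Then came 6330410L21Rik at 103 and 108 CPM in CON and 164 and 159 CPM in SD (0.60) and Slc6a19os at 20.1 and 18.9 CPM in CON and 29.1 and 30.6 CPM in SD (0.60). Last were 1700101I11Rik at 16.7 and 16.3 CPM in CON and 27.6 and 28 CPM in SD (0.73) and 4930518C09Rik at 3.3 and 2.78 CPM in CON and 5.3 and 4.88 CPM in SD (0.73). Over the other times their averaged changes lay between -0.09 for Gm15890 and 0.04 for Gm26697. All 6 overlap a gene on the opposite strand. Gm26697 overlaps Slc27a2, a fatty acid transporter gene of the proximal tubule at 2497 and 2453 CPM in CON and 3323 and 3425 CPM in SD. Gm15890 overlaps Herpud1 of the endoplasmic reticulum stress response (0.58 on the log2 scale), and 6330410L21Rik overlaps the growth factor gene Egf (0.26). Reads were counted by strand, and the counts of annotated antisense genes relative to coding genes were 0.697% and 0.730% in CON and 0.815% in each SD library at CT24, against 0.704% to 0.917% elsewhere. That share moved with the condition at CT24, and its part in these values was not tested. Both SD libraries being above both CON libraries at one of the 5 other times and below them at another was found for 13 members, and for 31.0% of all genes.

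Over the 5 other times, 4 of the 71 members varied with time in CON kidney (1.28% of all genes), namely Irgm1, Plac8, Klf15 and 4930518C09Rik, and 5 in SD kidney (1.46% of all genes), namely Klf15, 4930518C09Rik, Ncapd2, Oasl1 and Top2a. Klf15 had adjusted p-values of 0.0491 in CON and 0.0207 in SD, with 43.6 and 39.4 CPM at CT4 and 53.5 and 44.1 CPM at CT20 in CON. For Irgm1 the adjusted p was 0.0132 in CON and 0.54 in SD, as its CON libraries went from 66.7 and 87.6 CPM at CT4 to 143 and 213 CPM at CT20. Whether Irgm1 varied more in CON than in SD was not shown, since the term for condition and time did not pass.

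In the liver at CT24, 67 members were measured well enough to test, in 4 libraries that did not choose them. Of these, 57 had a negative and 10 a positive log2 fold change, where 50.6% of all genes were negative. All 5 higher members that were tested were positive there. After adjustment 3 passed (0.238% of all genes), all cell cycle genes. Uhrf1 was at 8.07 and 29.3 CPM in CON and 4.63 and 1.52 CPM in SD liver (-2.47 on the log2 scale, adjusted p = 0.0495), Racgap1 at 5.42 and 6.91 CPM in CON and 2.18 and 1.68 CPM in SD (-1.54, adjusted p = 0.0495) and Ncapd2 at 12.2 and 17.5 CPM in CON and 6.93 and 5.74 CPM in SD (-1.09, adjusted p = 0.0495). The count rested on single libraries, with 0 members without liver CON replicate 2 or SD replicate 2, 1 without SD replicate 1 and 25 without CON replicate 1. At an unadjusted p under 0.05, 45 members were lower, against 7.81% of all genes, and 4 were higher, against 5.48%.

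By group, the 24 cell cycle genes had a median log2 fold change of -1.46 in liver, from -2.47 to 0.10. Of them 22 were lower at an unadjusted p under 0.05, against 7.81% of all genes. The 26 interferon genes had a median of -0.65, all with a negative sign, and 18 were lower at that level. The 2 CON livers differed for Igtp (109.5 and 267 CPM, with 60.6 and 53.9 CPM in SD). They also differed for Irf7 (61.5 and 142 CPM, with 44.7 and 37.1 CPM in SD). For Erap1 they were alike (236 and 235 CPM, with 183 and 204 CPM in SD). Among the cell cycle genes Plk1 was at 2.8 and 3 CPM in CON and 0.767 and 0.491 CPM in SD liver (-2.08), which did not pass (adjusted p = 0.081), and Top2a was at 24.2 and 38.9 CPM in CON and 12.4 and 5.97 CPM in SD (-1.66, adjusted p = 0.0731). The 5 higher members tested in liver had a median of 0.82, with Gm15890 at 25.3 and 23.9 CPM in CON and 53.8 and 42.5 CPM in SD (1.10, adjusted p = 0.0925) and Klf15 at 70.4 and 50 CPM in CON and 83 and 110.2 CPM in SD (0.82, adjusted p = 0.133). Cox7a1, with the fat markers lower in kidney, was at 0.54 in liver (adjusted p = 0.716). Collagens and Igf1 ranged from -0.51 to 0.09, and none passed.

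**Figure D5:**
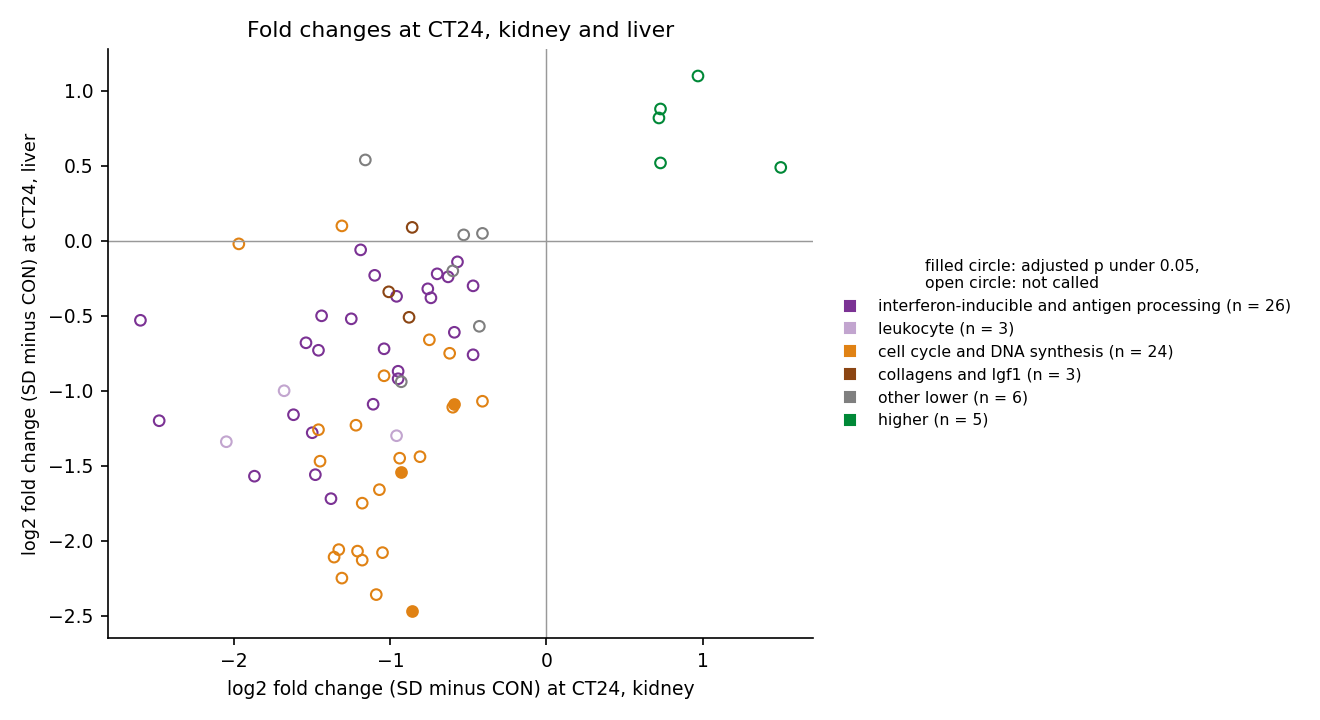
Log2 fold changes (SD minus CON) at CT24 of the 67 members tested in both tissues, in kidney on the x axis, where they were chosen, and in liver on the y axis. Filled circles are the 3 that passed in liver. The cell cycle genes reach -2.47 in liver, the interferon genes lie between -1.72 and -0.06, and the 5 higher members are above 0.

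Neither brain region gave a call at CT24. In forebrain 0 of 67 members tested passed by edgeR (0% of all genes), with 3 lower (1.81% of all genes) and 1 higher (1.24%) at an unadjusted p under 0.05 and a median log2 fold change of 0.03. In cerebellum 0 of 65 passed (0% of all genes), with 5 lower (1.36% of all genes) and 2 higher (1.24%) at that level and a median of -0.05. The 24 interferon genes tested in each had medians of -0.25 in forebrain and -0.32 in cerebellum. With 2 libraries a group, these values do not show that the genes were alike in both conditions there, and no difference between tissues was tested.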

How the data were processed

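The authors trimmed paired reads with Trim Galore, aligned them to GRCm38 with HISAT2, kept alignments of high mapping quality with SAMtools and counted them per gene and strand with featureCounts. The deposited values are raw counts for 54833 features in 96 libraries. Symbols came from GENCODE M21, and promoter sequences from RefSeq (GRCm38.p6). For tests, edgeR 4.0.16 (R 4.3.3) fitted 1 mean per condition and time to the counts after TMM scaling and filterByExpr, using its quasi-likelihood method, and p-values were adjusted by Benjamini-Hochberg across every gene in the fit. The CT24 fit used the 24 kidney libraries, the fit of the 5 other times 20, and each tissue had its own. SE is the log2 fold change over the root of its F statistic. CPM are counts over the library total. Tests were tried on simulated data. Single CPM are given where a group has 2 libraries. The p-values rest on the spread within groups over all libraries of the fit, shared across genes, and not on those 2 libraries alone.

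Every member is named except 1, which is not reported here. Values at CT24 are given for the 10 largest changes each way (mean of 1 CPM or more in the higher group), for members of a gene list and for those that passed over the other times. The members and lists were chosen with earlier results of these data known, and role groups after their values were seen. Leaving out libraries, other scalings, filters and fits, and DESeq2 1.42.0 served as alternatives.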

Additional observations from a re-analysis of the deposited data

Results flagged for a closer look

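For 13 members both SD kidneys were above both CON kidneys at 1 or more of the 5 other times and below them at another, as for 31.0% of all genes. With 2 libraries a group these opposite moves were not tested one by one, and the joint term for condition and time passed for none of them. Of the 13, 7 were cell cycle genes, which were below at CT4 and above later, with log2 fold changes where they were above of 0.74 for Cenpm at CT12, 0.13 for Mki67 at CT12, and at CT20 of 0.15 for Dlgap5, 0.31 for Anln, 0.34 for Parpbp, 0.16 for Mki67, 0.07 for Atad2 and 0.13 for Ncapd2. Bak1 was above at CT12 (0.19). Another 5 were higher members, all below at CT20, with 0.20 at CT4, 0.42 at CT12 and 0.05 at CT16 for Gm26697, 0.13 at CT4 for 4930518C09Rik, 0.21 at CT12 and 0.11 at CT16 for 1700101I11Rik, and at CT16 0.10 for Slc6a19os and 0.06 for 6330410L21Rik. Groups of 2 libraries are too small to look for single outlying samples.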

How the results depend on the processing

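Each log2 fold change at CT24 of the 71 members, and each one over the other times of the 30 that passed there, kept its sign in every alternative that gave a value. The number of genes called at CT24, 71, became 21 with library sizes alone, 290 with DESeq2, 339 with the 4 CT24 libraries alone and 1044 with no filter on low counts, and 0 to 21 without 1 library; the cause was not tested. The RLE factors, robust spread and long and short gene balance kept it within 1.5 times. Over the other times the count of members stayed between 24 and 38 under other settings and between 23 and 32 without 1 library. Whether kidney replicate numbers pair the samples was not established. Deviations of same-numbered libraries correlated at -0.06 to 0.26 over the 6 times. With a replicate block 158 genes were called at CT24, 57 of them members. The members called with the replicate block were 28 over the other times (286 genes in all), 0 at CT4 (1 gene), 0 at CT8 (9 genes), 0 at CT20 (0 genes) and 0 in liver (30 genes).

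At single times, library sizes alone gave 0 members at CT4, CT8 and CT20, and the fit of all 24 kidney libraries 0 at CT4 and CT8. DESeq2 gave 4 at CT4 (41 genes in all), 6 at CT8 (73 genes), 8 at CT16 (35 genes) and 16 at CT20 (49 genes). No filter gave 26 at CT4 (450 genes), 22 at CT8 (503 genes), 5 at CT12 (427 genes), 20 at CT16 (465 genes) and 25 at CT20 (855 genes). Without 1 library the counts ran from 0 to 1 at CT4, 0 to 6 at CT8 and 0 to 4 at CT20. With no filter 14 members had a term for condition and time, 28 varied with time in CON and 34 in SD, while the counts over all 35637 genes tested rose to 1033, 2358 and 2209. No filter likewise raised the genes called at single times to 427 at CT12 up to 855 at CT20, and those called in liver to 1102. The number of members that varied with time in SD was 8 with library sizes alone (421 genes in all) and 11 with all 24 libraries (569 genes). Without 1 library it was 0 to 7 in SD and 1 to 6 in CON. The liver count of 3 (47 genes in all) became 28 with library sizes alone (309 genes), 45 with no filter (1102 genes) and 32 with DESeq2 (466 genes). Depth limits the scarcest members, such as Kcng4 and Flvcr2, and 2 libraries a group limit every single-time test.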
